A study of Mus musculus with 18 samples.

Results

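The RNAs described here come from the Prader-Willi/Angelman locus on mouse chromosome 7, between Ube3a and Mkrn3. They were followed with the array probes named Snrpn, Ube3a, Ndn, Magel2 or Mkrn3, or after either of 2 lincRNA intervals of the array design. That gave 18 of the 55681 probe names, 9 for the genes and 9 for the intervals. By their order along the chromosome the intervals are called here the Ube3a-side and the Snrpn-side interval, although both lie nearer to Snrpn. Snurf had no probe of its own name, but each of the 3 Snrpn probes lists a transcript that RefSeq files under Snurf. The genes were taken by name. The intervals were chosen by the difference between nuclei and cytoplasm on these same arrays, where their probes were among the most cytoplasmic, so the difference between their fractions is given as a description, without a test.

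The samples were pools of 5 to 10 myofibers dissected with collagenase from EDL (extensor digitorum longus), soleus or TA (tibialis anterior) of CD1 female mice aged 3 months. Each pool was lysed, its nuclei were pelleted, and the RNA of the nuclei or of the supernatant (cytoplasm) was hybridized to an Agilent array in 1 colour. With 3 muscles and 2 fractions there were 6 groups of 3 arrays, 18 arrays altogether. By the labels, EDL and soleus pools came from the same pairs of mice. TA cytoplasm 1 and 2 share a mouse, which was also in EDL and soleus pools 2. TA nuclei came from 1 mouse each. The mice of TA nuclei 1 and 2 were also in TA cytoplasm 1 and 2, and that of TA nuclei 3 was in EDL and soleus pools 1. The main fit leaves out this sharing, so p-values measure the spread between these pools.

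The locus is imprinted. Snrpn, Snurf, Ndn, Magel2, Mkrn3 and Peg12 are transcribed from the paternal chromosome, and a long non-coding RNA that starts near Snrpn and runs antisense into Ube3a hosts clusters of small nucleolar RNAs and includes Ipw. Ube3a, a ubiquitin ligase, is maternal in neurons and biallelic in most other tissues. Loss of the paternal transcripts in humans causes Prader-Willi syndrome, in which infants have weak muscle tone, and loss of maternal UBE3A causes Angelman syndrome.

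The 9 interval probes are printed here because the strongest signals of the locus rest on them. They run 5' to 3' as the array design gives them, from the Ube3a side to the Snrpn side, and all lie on the plus strand of mm9, opposite to Snrpn. Capitals mark stretches of at least 20 bases that also occur, on either strand, in another probe between chr7:66777513 and chr7:67050160.
A_30_P01020890: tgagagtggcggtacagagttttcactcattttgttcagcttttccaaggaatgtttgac
A_30_P01032889: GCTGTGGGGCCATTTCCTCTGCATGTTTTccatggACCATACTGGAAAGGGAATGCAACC
A_30_P01027817: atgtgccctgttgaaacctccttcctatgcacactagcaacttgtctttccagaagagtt
A_30_P01020288: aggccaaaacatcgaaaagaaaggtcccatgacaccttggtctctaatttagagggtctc
A_30_P01030267: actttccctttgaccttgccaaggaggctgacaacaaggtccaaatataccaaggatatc
A_30_P01028376: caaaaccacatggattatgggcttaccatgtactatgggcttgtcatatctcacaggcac
A_30_P01033430: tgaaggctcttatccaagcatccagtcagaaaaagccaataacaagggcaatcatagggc
A_30_P01019879: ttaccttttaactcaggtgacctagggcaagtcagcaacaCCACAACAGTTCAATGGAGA
A_30_P01029119: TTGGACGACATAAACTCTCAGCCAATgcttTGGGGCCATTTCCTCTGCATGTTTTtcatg
The first 4 belong to the Ube3a-side interval, from chr7:66928846-66928905 to chr7:66930436-66930495. The last 5 belong to the Snrpn-side interval, from chr7:67003284-67003343 to chr7:67017161-67017220. GC content was 45% in 7 of the 9 probes. The capitals of A_30_P01032889 recur in 3 plus-strand probes, A_30_P01029119 of the other interval and A_30_P01029670 and A_30_P01019441 of a further interval, with 25 identical bases each, so these probes are not independent measurements of separate sequences. The last 20 bases of A_30_P01019879 and the first 26 of A_30_P01029119 are the reverse complement of parts of a Gm7339 probe, on the minus strand. Of the other 6 interval probes, 4 shared no run of 16 or more bases with another probe of the array and 2 shared a run of 16 with 1 probe elsewhere.

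Markers bore out the nuclear label and the muscle tissue, while no list held a marker of cytoplasm, so the purity of the cytoplasm cannot be judged from them. The nuclear RNAs Malat1, Neat1, Xist, Kcnq1ot1 and Meg3 were higher in nuclei, 5 of 5 over the 3 muscles, by 2.23 to 4.38 on the log2 scale. In TA alone 4 of the 5 were called, the exception being Xist, 1.72 higher (limma adjusted p 0.0906). All 8 muscle fiber markers were well above background on every array, and over the 3 muscles 6 of them were higher in nuclei and 0 in cytoplasm. Endothelial, Schwann cell and connective tissue markers were also well above background in nuclei of every muscle, 12 of 12 genes, and the summed endothelial level was 12.34 to 12.52 in TA nuclei and 10.12 to 11.01 in TA cytoplasm. Their part in the results below was not tested. Between 58.6% and 71.2% of spots per array were well above background, and the number of arrays limits the precision. EDL and soleus cytoplasm shared a slide with TA cytoplasm 1, and EDL and soleus nuclei shared another, so fraction and slide cannot be told apart within EDL or soleus.

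The interval probes gave bright signals in cytoplasm and faint ones in nuclei. Over the 9 probes, single arrays read between 6.75 and 12.24 on the log2 intensity scale in cytoplasm and between 2.30 and 7.03 in nuclei. These levels are relative to the other RNAs of the same array, and in a pool fewer contributing nuclei or fibers and less RNA in each cannot be told apart. For A_30_P01028376, of the Snrpn-side interval, the cytoplasm arrays read 10.72, 11.05 and 10.50 for EDL, 11.46, 9.40 and 10.50 for soleus and 10.69, 10.04 and 10.01 for TA. Its nuclear arrays read 3.75, 2.92 and 2.51 for EDL, 3.53, 2.63 and 2.37 for soleus and 5.19, 5.49 and 5.03 for TA. No nuclear array overlapped with the cytoplasm arrays, and TA nuclei were the highest of the nuclei. Its measured nuclei minus cytoplasm difference over the 3 muscles was -6.77, but it was not well above background on any EDL or soleus nuclear array, so the size is not exact. By these measured differences, the values that chose the intervals, the 9 probes ranked between 1 and 80 from the cytoplasmic end of 40541 probes, and the other 8 lay between -6.15 and -4.54.

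**Figure D1:**
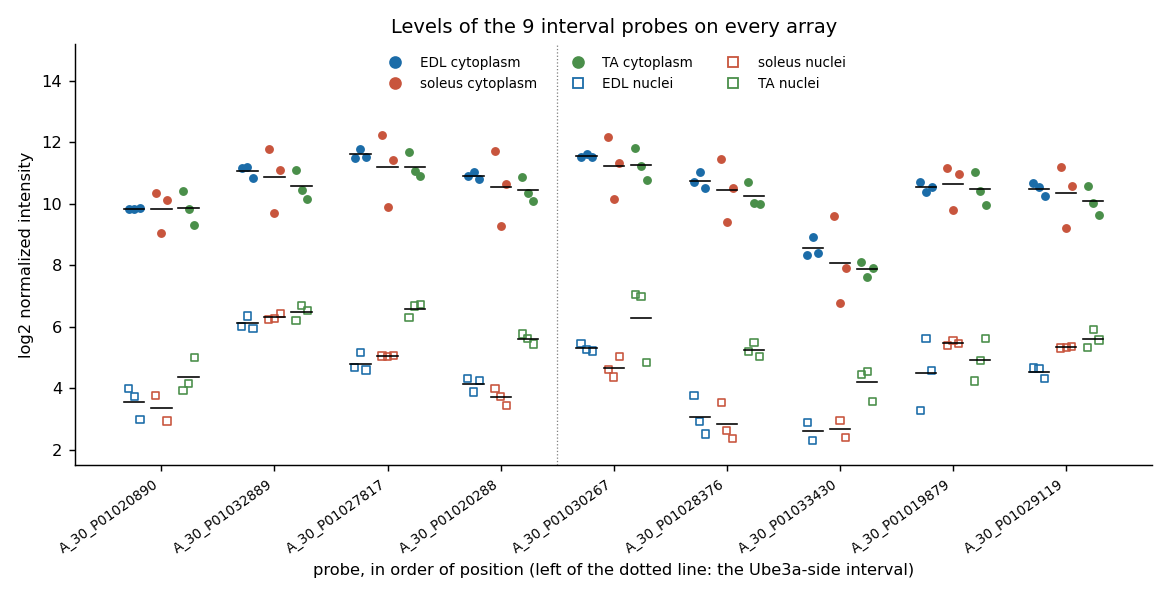
Log2 normalized intensity (vertical axis) of the 9 interval probes (horizontal axis, in order of position) on every array; filled circles are cytoplasm, open squares are nuclei, colours are muscles and black bars are group means. Every cytoplasm array lies above every nuclear array of the same probe, by at least 2.21 on the log2 scale.

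The size of the difference varied among the probes. A_30_P01033430 read 8.55 ± 0.32 in EDL, 8.08 ± 1.43 in soleus and 7.87 ± 0.24 in TA (SD, n = 3 arrays each), and was not well above background on any nuclear array. A_30_P01032889, which carries the repeated stretches, read 5.94 to 6.70 on the 9 nuclear arrays, and its difference of -4.54 (SE 0.22) was the smallest of the 9. Of the interval probes, 3 were well above background on all 9 nuclear arrays. Where no nuclear array of a muscle was well above background, cytoplasm can only be given as a lower bound against the faintest well-measured signal of the same arrays. On that basis A_30_P01028376 was at least 103-fold higher in cytoplasm in EDL and at least 85.4-fold higher in soleus. The bounds for A_30_P01020890 were 54.6-fold and 55.7-fold in the same muscles, and that for A_30_P01020288 in soleus was 91.1-fold. A_30_P01033430 was at least 22.3-fold, 16.5-fold and 10.701-fold higher in EDL, soleus and TA.

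The 9 probes moved together from array to array in cytoplasm. Soleus cytoplasm 2 was the lowest of the 9 cytoplasm arrays for all 9 probes, and soleus cytoplasm 1 the highest for 8 of them, TA cytoplasm 1 for the other. Soleus cytoplasm 2 was also the array with the fewest spots well above background, 58.6%, and whether the 2 are related was not tested. The correlation between pairs of interval probes over the 9 cytoplasm arrays had a median of 0.94 (36 pairs, 0.63 to 0.99). Over the 9 nuclear arrays the median was 0.55 for the 7 probes measured on each (21 pairs, -0.47 to 0.95). These are descriptions, since the probes share arrays and some share sequence.

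The measured differences of the interval probes were smaller in TA for most probes, given here as a description because these differences chose the intervals. The median difference over the 9 probes was -6.24 for EDL, -6.14 for soleus and -4.83 for TA, and TA had the smallest difference for 8 of the 9 probes, the exception being A_30_P01019879. For A_30_P01028376 the measured values gave -7.70, -7.61 and -5.01 in EDL, soleus and TA, the first 2 against nuclei in which it was not well above background. In all, 4 of the 9 probes were not well above background in the nuclei of at least 1 muscle, so the order of the muscles is not settled for them. On the slide that held TA nuclei and TA cytoplasm 2 together, the difference of A_30_P01028376 was -4.80, and over the 9 probes that single array of cytoplasm gave -5.51 to -3.43. For the named genes, limma's F test of the interaction of muscle and fraction, which called 1.57% of all probes, called none of the 5 probes tested, and Ube3a alone had an unadjusted p under 0.05.

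**Figure D2:**
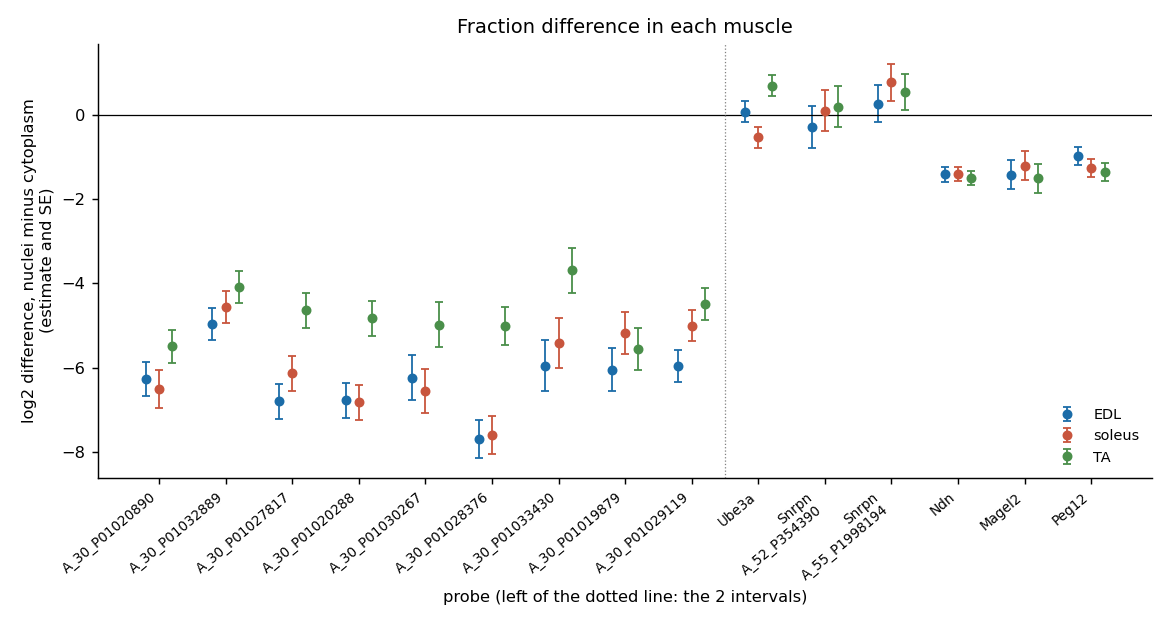
Nuclei minus cytoplasm difference on the log2 scale (vertical axis; point, estimate; bar, SE from limma) for the 9 interval probes and for the named genes and Peg12 (horizontal axis), in each muscle by colour. The 9 interval probes lie between -7.70 and -3.69, Ndn, Magel2 and Peg12 between -1.50 and -0.98, and Ube3a and Snrpn between -0.53 and 0.78.

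Within cytoplasm no interval probe was called between the muscles, while 3 were called higher in TA nuclei than in EDL nuclei. This is no test between the fractions, and limma's interaction of muscle and fraction was called for 0 of the 14 member probes tested. Replicates also spread more in cytoplasm (median SD 0.25 to 0.40 by group) than in nuclei (0.11 to 0.15). In cytoplasm none of the 9 passed in soleus against EDL or in TA against EDL, the differences against EDL lying between -0.67 and 0.11. The values compared also entered the difference that chose the intervals, so calls in nuclei are only in part independent of that choice. In nuclei, all 9 had a higher mean in TA than in EDL, and 3 passed limma's threshold, beside 7.59% of all probes higher in TA. These were A_30_P01028376 (adjusted p 0.00576), A_30_P01027817, 1.76 higher (SE 0.41, adjusted p 0.011), and A_30_P01020288, 1.47 higher (SE 0.42, adjusted p 0.0278). A_30_P01028376 was not well above background in EDL nuclei, so it can only be said to have been at least 2.25-fold higher in TA nuclei. For A_30_P01027817 the nuclear arrays read 4.66, 5.15 and 4.59 for EDL, 5.04, 5.02 and 5.07 for soleus and 6.31, 6.67 and 6.71 for TA. TA nuclei did not overlap with the nuclei of the other muscles for this probe. TA nuclei and EDL nuclei lay on different slides, so muscle and slide cannot be told apart, and with slide as a random block none of the 3 passed (limma adjusted p 0.485 to 0.694), while the differences of A_30_P01027817 and A_30_P01020288 were 1.84 and 1.52. With normexp background correction none passed (0.168 to 0.404), and the same 2 differences were 0.75 and 0.49. A_30_P01020288 also lost the threshold without any 1 of the 6 arrays of EDL and TA nuclei (0.0599 to 0.0943). That call was lost as well when spots had to be well above background (difference 1.19, limma adjusted p 0.105).

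The neighbours of the intervals were measured with every probe within 1 Mb of the members, 103 that are not members. Between the Ube3a and Snrpn probes lay 53 of them, of which 33 could be tested over the 3 muscles, 13 being higher in nuclei, 11 higher in cytoplasm and 9 not called. Over all probes tested, 31.2% were higher in nuclei and 38.6% in cytoplasm. From Gm3079 at chr7:66777513 to A_30_P01019441 ending at chr7:67050160, a stretch of 272.6 kb that holds both intervals, 8 of the 9 other probes that could be tested lay below -4, down to -5.89, while no tested probe between Ube3a and this stretch lay below -0.74. The bounds of the stretch were set after its values were seen.

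**Figure D3:**
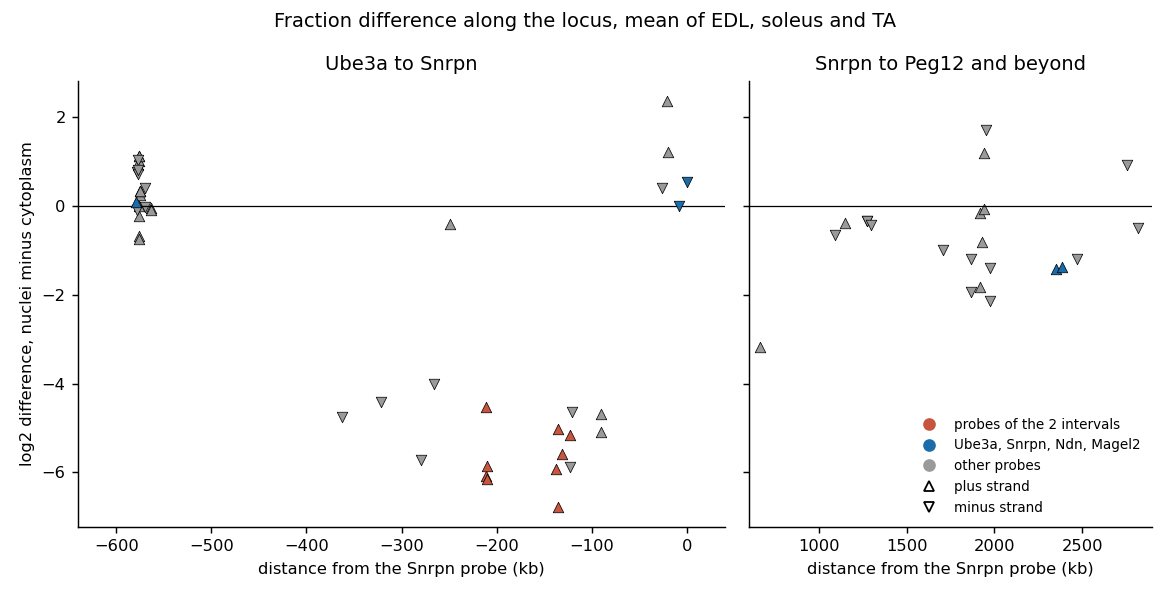
Nuclei minus cytoplasm difference on the log2 scale, mean of the 3 muscles (vertical axis), against distance in kb from the Snrpn probe A_55_P1998194 (horizontal axis, on different scales in the 2 panels), for every tested probe from Ube3a onward; colours separate interval probes, named genes and other probes, and triangles point up for the plus strand and down for the minus strand. Probes below -4 lie in 1 stretch between Ube3a and Snrpn and are found on both strands.

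Both strands gave this pattern. The minus strand is that of Snrpn and of its long non-coding transcript, and 6 minus-strand probes of the stretch could be tested, all of them below -4 as measured. Gm3079, a predicted gene of the minus strand, differed by -4.77 (SE 0.20). No test is given for it, since it sets the start of the stretch and was picked after its value was seen. Gm3094 and Gm3105 were not well above background in EDL or soleus nuclei. In the cytoplasm of these muscles Gm3094 was at least 26.5-fold and 20.3-fold higher, and Gm3105 at least 53.4-fold and 35.1-fold. Gm7339, on the minus strand within the Snrpn-side interval, differed by -5.89 as measured at A_55_P2152164, which was not well above background in EDL nuclei, and by -4.64 at A_55_P2152165. The first 26 bases of A_55_P2152164 are the reverse complement of the first 26 of the interval probe A_30_P01029119, which differed by -5.15, on the other strand of the same place. Ipw, an imprinted non-coding RNA of the minus strand, read 6.99 ± 0.17, 6.84 ± 0.95 and 6.83 ± 0.44 in EDL, soleus and TA cytoplasm (SD, n = 3) and was not well above background on any nuclear array. It was at least 7.58-fold, 6.96-fold and 5.76-fold higher in cytoplasm in EDL, soleus and TA. The Ipw probe shares 54 bases with A_30_P01023754 at the same position, which is among the 6 tested. These 2 are therefore not independent measurements of separate sequences. A_30_P01031723, the next probe on that strand, was fainter, with bounds of only 1.19-fold, 1.27-fold and 1.48-fold in EDL, soleus and TA. Of the stretch's probes tested over the 3 muscles, Gm3114 was the exception, at -0.42 (SE 0.11, adjusted p 0.00361, limma). Its probe shares 16 or more bases with 50 other probes of the array, none of them in the stretch.

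Most probes next to Ube3a, and the tested ones just before Snrpn, lay near 0 or toward nuclei over the 3 muscles. The 5 lincRNA intervals next to the Ube3a probe A_52_P625244 had 24 probes, 21 of them tested, and differences of -0.74 to 1.13, with 11 higher in nuclei and 2 higher in cytoplasm. In TA 11 of the 21 were higher in nuclei, up to 2.24, in EDL 2 and in soleus 1, against 19.2%, 20.0% and 18.7% of all probes in the same muscles. Higher in cytoplasm were 1 in TA, 2 in EDL and 0 in soleus, beside 33.5%, 26.5% and 21.7% of all probes. By muscle, the nuclear share was above that of all probes in TA only. Of the 21, 17 lay in 3 intervals within 5 kb of the Ube3a probe. Just before the Snrpn probes, 5 intervals had 17 probes from chr7:67114248 to chr7:67120677, which were faint. Of these, 11 were well above background on at least 1 nuclear array and 4 on at least 1 cytoplasm array. The 3 that could be tested differed by 0.41, 1.21 and 2.36, the last 2 past limma's threshold and toward nuclei. No probe named Snhg14, Snord115, Snord116 or Snord64 was on the array. Whether an interval probe, A_30_P01020890 among them, overlaps a small nucleolar RNA gene was not checked.

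Snrpn encodes SmN, a core protein of the spliceosome's small nuclear ribonucleoproteins. Neither of its 2 measured probes was called between fractions over the 3 muscles in the main fit, and the 2 were not tested against each other. At A_52_P354390 the cytoplasm arrays read 8.82, 9.28 and 7.86 for EDL, 8.36, 7.68 and 8.26 for soleus and 7.74, 5.40 and 5.57 for TA. The nuclear arrays read 8.55, 8.47 and 8.10 for EDL, 8.41, 8.38 and 7.84 for soleus and 6.52, 6.51 and 6.27 for TA. The fractions overlapped in every muscle, and the difference over the 3 muscles was 0.01 (SE 0.28, limma adjusted p 0.985), which passed only with no scaling between arrays (0.68, adjusted p 0.0326). At A_55_P1998194 soleus cytoplasm read 7.17 to 7.67 and soleus nuclei 8.07 to 8.36, without overlap, while the fractions overlapped in EDL and TA. Over the 3 muscles its difference was 0.53 (SE 0.25, adjusted p 0.0716), toward nuclei. It passed with 75th percentile scaling (0.0387), no scaling (0.000463), well above background required (0.0393), no filter on dim spots (0.0393), and without EDL cytoplasm 2 (0.0314) or TA cytoplasm 1 (0.00108). The third Snrpn probe, A_55_P1990116, was not well above background on any array.

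Snrpn was lower in TA than in EDL at both measured probes and in both fractions. A_52_P354390 was lower by -1.94 in nuclei (SE 0.49, limma adjusted p 0.0156) and by -2.42 in cytoplasm (SE 0.49, adjusted p 0.00825). A_55_P1998194 was lower by -2.10 (SE 0.44, adjusted p 0.00609) and -2.38 (SE 0.44, adjusted p 0.00533). Over all probes, 9.81% were lower in TA nuclei than in EDL nuclei, 7.33% lower in TA cytoplasm than in EDL cytoplasm and 5.12% higher there. TA cytoplasm 1, the TA array on the slide of EDL cytoplasm, read 7.74 and 7.10 at the 2 probes, below the EDL cytoplasm arrays of that slide (7.86 to 9.28 and 7.45 to 8.84) but above TA cytoplasm 2 and 3 (5.01 to 5.57), which were on other slides. With slide as a random block no Snrpn comparison between the muscles passed (adjusted p 0.0694 to 0.687), the differences being -1.50 and -1.80 in nuclei and -1.63 and -1.68 in cytoplasm. With nuclear arrays averaged to 1 sample, those in cytoplasm did not pass (0.167 and 0.152). A_52_P354390 also lost the threshold in nuclei without EDL nuclei 1 (0.0552), EDL nuclei 2 (0.0525) or TA nuclei 3 (0.058), and in cytoplasm without TA cytoplasm 2 (0.0554). Connective tissue and some other cell type markers were lower in TA as well. Connective tissue markers were lower than in EDL in 3 of 3 genes in cytoplasm and in 2 of 3 in nuclei, with medians of -1.92 and -1.30. On the log2 scale their summed level was 11.76 to 12.52 in TA cytoplasm against 13.40 to 13.80 in EDL cytoplasm, and 12.85 to 13.05 in TA nuclei against 14.70 to 14.83 in EDL nuclei. Of 4 Schwann cell markers, 2 were lower in cytoplasm and 1 in nuclei, with medians of -1.11 and -1.03, and of 5 endothelial markers 2 were lower in cytoplasm and none in nuclei. Their part in the Snrpn and Ube3a values was not tested.

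Ube3a was measured at A_52_P625244, while A_66_P110924 was not well above background on any array. Cytoplasm arrays read 7.57, 6.79 and 7.08 for EDL, 8.10, 8.36 and 7.30 for soleus and 5.80, 5.80 and 6.17 for TA, and nuclear arrays read 7.18, 7.26 and 7.24, then 7.24, 7.47 and 7.46, then 6.62, 6.77 and 6.49. The fractions overlapped in EDL and soleus, with differences of 0.08 (SE 0.25, limma adjusted p 0.821) and -0.53 (SE 0.25, adjusted p 0.11), but not in TA, where Ube3a was higher in nuclei by 0.70 (SE 0.25, adjusted p 0.0295). In soleus the difference became -0.83 without soleus cytoplasm 3 (adjusted p 0.012) and 0.65, the other way, with no scaling between arrays (0.0484). The TA call was lost with normexp background correction (0.125), with nuclear arrays averaged to 1 sample (0.351) and without TA cytoplasm 1 (0.0722), TA cytoplasm 2 (0.0814), TA nuclei 1 (0.0634) or TA nuclei 2 (0.0899). The difference between muscles was not called (interaction adjusted p 0.167; 0.0358 without soleus cytoplasm 3). In cytoplasm Ube3a was lower in TA than in EDL by -1.22 (SE 0.25, adjusted p 0.00931; 0.051 without TA cytoplasm 2 and 0.179 with nuclear arrays averaged), and TA cytoplasm 1 was below all 3 EDL arrays of its own slide.

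**Figure D4:**
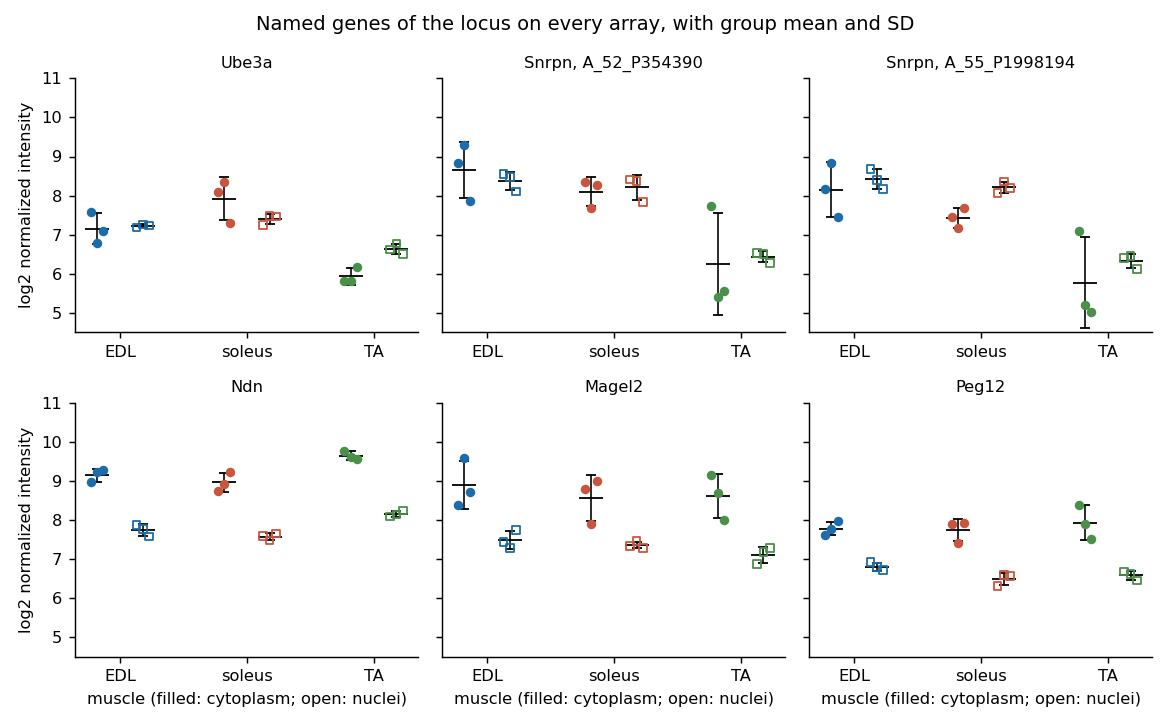
Log2 normalized intensity (vertical axis) of Ube3a, the 2 measured Snrpn probes, Ndn, Magel2 and Peg12 on every array by muscle (horizontal axis); filled circles are cytoplasm, open squares are nuclei, and bars are the group mean and SD of 3 arrays. Ndn, Magel2 and Peg12 are higher in cytoplasm in each muscle, while Snrpn and Ube3a have lower means in TA. Against EDL, the Ube3a difference passed limma's threshold in cytoplasm but not in nuclei.

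Ndn and Magel2, which lie side by side, were both higher in cytoplasm in each muscle. Ndn encodes necdin, a MAGE-family protein linked to growth arrest and differentiation. Its cytoplasm arrays read 8.97, 9.22 and 9.28 for EDL, 8.75, 8.94 and 9.23 for soleus and 9.77, 9.63 and 9.56 for TA, and no nuclear array exceeded 8.25. The difference over the 3 muscles was -1.43 (SE 0.10, limma adjusted p 9.58e-09), 2.70-fold, and it was -1.41, -1.39 and -1.49 in EDL, soleus and TA. Magel2 encodes a MAGE protein that acts with a ubiquitin ligase on endosomal sorting. It read 7.91 to 9.59 in cytoplasm and 6.87 to 7.74 in nuclei. Its difference was -1.38 (SE 0.20, adjusted p 1.71e-05) over the 3 muscles and -1.42, -1.21 and -1.50 in EDL, soleus and TA.

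The calls of Ndn and Magel2 can be read against the array as a whole. Of the named-gene probes, 5 could be tested over the 3 muscles and these 2 were called, a share near the 38.6% of all probes higher in cytoplasm. The same 2 were called in each muscle, where 26.5% (EDL), 21.7% (soleus) and 33.5% (TA) of all probes were higher in cytoplasm. Neither gene passed between soleus and EDL or between TA and EDL in limma's test, the closest being Ndn in cytoplasm, 0.50 higher in TA (SE 0.17, adjusted p 0.065). With slide as a random block Magel2 was no longer called in EDL (0.23) or soleus (0.379), and in soleus it was also lost without soleus cytoplasm 3 (0.057). With nuclear arrays averaged to 1 sample it was called in no muscle (0.126 to 0.289), and Ndn was not called in soleus (0.0679). With no scaling between arrays, where the median of all probes moved to 0.96 in soleus, neither was called there, nor Magel2 in EDL (0.0751). Mkrn3, a makorin with zinc fingers, was not well above background on any array at either probe. Peg12, the next imprinted gene beyond this cluster and no member by name, differed by -1.19 (SE 0.13, adjusted p 8.19e-07). Between the Snrpn probes and the Mkrn3, Magel2 and Ndn cluster lay 40 further probes, 17 of them tested over the 3 muscles. Of these 17, 13 were higher in cytoplasm, 2 higher in nuclei and 2 not called, with a median of -0.66. Among the 13, the probes named Gcm1, Gm3237 and Dcc (-0.38, -0.34 and -0.35) share 19, 38 and 39 bases with the Gm3114 probe. They are therefore not independent measurements of separate sequences. The most cytoplasmic of the 17, A_55_P2148403 at chr7:67804562-67804621, has no gene name and differed by -3.18 (SE 0.19). It was chosen here after its value was seen, so no test is given.

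No member passed the test between soleus and EDL. In nuclei 15 member probes were tested, none passed limma's threshold and none had an unadjusted p under 0.05, while 1.56% of all probes passed. In cytoplasm 14 were tested, none passed and 1 had an unadjusted p under 0.05, while 1.42% of all probes passed. That probe was Ube3a, 0.77 higher in soleus (SE 0.25, adjusted p 0.17).

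The lists of partner genes can be read beside the 31.2% of all probes that were higher in nuclei. Of 12 listed genes of the MAGE family and of the complex in which Magel2 acts, 8 could be tested over the 3 muscles, 7 were higher in nuclei and none in cytoplasm, with a median difference of 0.91 beside -0.08 for all probes. Among them Usp7, a deubiquitinase bound by Magel2, differed by 1.32, Vps26a, a retromer subunit, by 0.98 and Maged1 by 1.26. Of the 7 Sm core protein genes, partners of SmN, Snrpd1 was higher in nuclei by 0.59 and 6 were not called, with a median of 0.11. Of 9 Ube3a partners, 3 were higher in nuclei (Psmd4, Ubqln1 and Arc), near that share, Herc2, itself a ubiquitin ligase, was higher in cytoplasm at -0.91, and 5 were not called. Of the 2 other makorins, Mkrn2 was higher in nuclei by 0.68 and Mkrn1 differed by 0.01.

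Flanking genes outside the imprinted domain were called at about the share of all probes. Of 15 listed, 9 could be tested, 3 were higher in nuclei, 2 higher in cytoplasm and 4 not called, with a median of 0.52, beside 31.2% and 38.6% of all probes. Klf13 and Tubgcp5 were higher in nuclei by 1.28 and 1.22, and Gabrg3 and Herc2 were higher in cytoplasm at -1.29 and -0.91. Of 16 listed imprinted names other than the members, 7 had a probe and 3 could be tested, of which Peg12 and A230006K03Rik were higher in cytoplasm, where 38.6% of all probes were, and Atp10a was not called. In TA 5 could be tested and 4 were higher in cytoplasm, beside 33.5% of all probes. Among them B230209E15Rik was well above background on all 9 cytoplasm arrays and on no nuclear array, so it was at least 2.96-fold, 3.09-fold and 2.66-fold higher in cytoplasm in EDL, soleus and TA.

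Outside the locus, the probes whose 18 arrays followed the intervals most closely were mapped to several chromosomes. Gm3079, their neighbour, had the highest correlation with the mean of both intervals, 0.998 with the Ube3a-side interval and 0.997 with the Snrpn-side one, among 35516 probes measured on all 18 arrays. After it came Speer5-ps1 at 0.997 and ENSMUST00000095981 at 0.996 for the Ube3a-side interval, and Gm10375 at 0.996 and Speer5-ps1 at 0.996 for the Snrpn-side one. The arrays fall into nuclei and cytoplasm, so these correlations, given as a description, contain the difference between fractions.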

How the data were processed

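RNA of nuclei and cytoplasm from myofiber pools of 3 muscles was measured on 18 Agilent 1-colour arrays. The spot intensities were made by the authors with Agilent Feature Extraction 10.7.3.1 (background subtracted and detrended), 1 deposited file per array, with probe positions in mm9. A second table from the authors, of quantile-normalized intensities, held values for 3687 features and for 0 of the member probes, and it was not used.

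From the processed intensities, control spots (3671) and outlier spots were left out. As in the study's methods, spots not positive and significant over background were set to missing (16.13% of values), log2 values were quantile-normalized between arrays, and spots of a probe were averaged, giving 55681 probe names. The study's methods used SAM for fractions. Here limma 3.58.1 in R 4.3.3 was fitted to all 18 arrays as 6 group means, with eBayes (prior df 3.271, residual df 12). A probe was tested when at least 2 of 3 arrays of each group involved had a value, p-values were Benjamini-Hochberg adjusted over all probes tested, and the threshold was 0.05. There were 9 comparisons, and the model was tested on simulated data. All differences are nuclei minus cytoplasm, soleus minus EDL or TA minus EDL, on the log2 scale.

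Named were the probes of the members, every probe on chromosome 7 within 1 Mb of them, and fixed gene lists, in which a gene's probe with the highest mean stands for it. Members and lists were chosen with earlier results of these data known. Alternatives were 75th percentile scaling, no scaling, normexp with offset 50, other filters, a replicate block, slide as a random block (correlation 0.524), nuclear arrays averaged, and each array left out. EDL and soleus samples of the same number come from the same mice per the labels, while their deviations from the group means correlated by only -0.111 to 0.101 over 35528 probes.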

Additional observations from a re-analysis of the deposited data

How the results depend on the processing

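The cytoplasmic lean of the 9 interval probes over the 3 muscles kept its sign in 240 of 240 values, the main fit included (-6.95 to -2.22, the smallest with normexp). That is a description and no support, since this difference on the same arrays chose the intervals. Peg12, Ndn and Magel2 kept their calls over the 3 muscles in the alternatives run. Counts of called members are given beside the main count, and only the larger changes are listed. Over the 9 settings that keep all arrays, counts ran from 0 to 3 in soleus, 1 to 4 in TA and 0 to 4 for TA against EDL in cytoplasm. A like count can hold other probes. With no scaling in soleus, Ndn and Magel2 were lost and Ube3a was called. Over the 3 muscles (2), no scaling gave 5 and no filter on dim spots 4. In EDL (2), no scaling, the slide block and averaged nuclear arrays gave 1 each. In soleus (2), the slide block gave 1 and averaged nuclear arrays 0, and in TA (3) averaged nuclear arrays gave 1. For the interaction (0 of 14 probes, the intervals included), 75th percentile scaling and no scaling gave 3, no filter 1 and the replicate block 1. The replicate block made none of the other changes listed here. For TA against EDL in nuclei (5), 75th percentile scaling gave 9, no filter 8, normexp 3, and the slide block and averaged nuclear arrays 0, the latter setting 1 averaged value against 1. In cytoplasm (3) the slide block gave 1 and averaged nuclear arrays 0. The causes were not tested.

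Leaving out 1 array at a time gave 0 to 3 interaction calls (3 without soleus cytoplasm 2), 0 to 1 for soleus against EDL in cytoplasm (1 without soleus cytoplasm 3), 3 to 8 for TA against EDL in nuclei (3 without EDL nuclei 1 or 2, 8 without soleus cytoplasm 2) and 1 to 4 in cytoplasm (1 without TA cytoplasm 2). For the named genes between fractions, leaving out 1 array gave 2 to 3 calls over the 3 muscles, 2 in EDL, 2 to 3 in soleus and 2 to 4 in TA. Some differences changed sign. With normexp, Ube3a over the 3 muscles became -0.03 and Snrpn at A_52_P354390 -0.075. With no scaling, Ube3a in soleus (-0.53, not called) became 0.65 and was called, and Magel2 in soleus (-1.21, called) became 0.028. Leaving out 1 array gave -0.019 to 0.16 for Ube3a over the 3 muscles, -0.10 to 0.29 for Ube3a in EDL, -0.13 to 0.26 for Snrpn at A_52_P354390, and -0.19 to 0.98 for A_30_P01019879 between TA and EDL nuclei. Many nuclear signals of the intervals were not well above background, which limits their folds and their differences between muscles.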
